A study of Mus musculus with 2 samples.

Results

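The genes of ribosome biogenesis and the transcription factor MYC were followed in mouse bone marrow cells cultured toward osteoclasts, the cells that resorb bone. The set was defined by 51 gene names, and a row of the array table was a member where its array name equalled one of them. This gave 30 member rows among 31492. The other 21 names have no row of that spelling. Of those, 3 (NOP56, NOP58 and BRIX1) are the current names of the member rows NOL5A, NOL5 and BXDC2, and the other 18 were found under rows with older array names. With another row of Brix1 these make 19 rows, which are described apart from the members below. Genes are given by their array names, with current symbols in brackets.

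The donors were C57BL/6 mice, 8 weeks old, and marrow cells were sorted by surface markers (CD3-, CD45R-, CD11b lo/-, CD115+), where CD115 is the receptor for M-CSF. Culture lasted 3 days in MEM-alpha medium containing 10% fetal bovine serum. The cultures received either macrophage colony-stimulating factor (M-CSF) together with RANKL, the cytokine that starts osteoclast formation, both at 30 ng/ml, or M-CSF alone at 30 ng/ml, so that both groups carried M-CSF. RNA of the adherent cells was hybridised to Illumina bead arrays, and each group stands for 3 biological replicates, of which the table holds a mean, an SD and a detection p-value per gene but no single array. Mean ± SD over these 3 arrays is therefore the finest value available, and p-values measure the spread among replicates whose origin (animals, sorts or cultures) is not stated.

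Ribosomes are assembled in the nucleolus, where RNA polymerase I transcribes the long precursor of ribosomal RNA. Small nucleolar ribonucleoproteins (snoRNPs) modify that precursor, methylating it where they carry box C/D RNAs and converting uridine to pseudouridine where they carry box H/ACA RNAs. Assembly factors and helicases then process it into the small and the large subunit. MYC is a transcription factor that pairs with MAX and is known to raise transcription of many of these genes in growing cells, while osteoclasts form from precursors that leave the cell cycle and fuse.

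Signals are normalized intensities on a linear scale, and background reads near 145 in each group, which makes the folds of dim genes too small. A gene was tested where its detection p was under 0.01 in at least 1 group. The test used the log2 ratio of the group means, RANKL over M-CSF alone, with its variance taken from the deposited SDs and moderated with limma, and a call required an adjusted p under 0.05. RANKL changed much of the transcriptome: of 11012 tested genes, 57.8% were called, 28.9% higher and 29.0% lower with RANKL, and 13.9% differed by at least 2-fold. The median log2 ratio of the tested genes was -0.00 and their median absolute log2 ratio 0.33. Osteoclast markers were higher in 6 of 6 tested. Over all 7 rows of that list, the untested CALCR included, intensities summed to 154814 with RANKL and 1305 with M-CSF alone. Monocyte and macrophage markers were lower in 7 of 7, with sums of 19383 with RANKL and 143358 with M-CSF alone. OSCAR, 4833422F24RIK (Ocstamp) and ACP5 entered the test through the RANKL group only, and C1QA through the M-CSF group only. For these genes the filter favoured the direction seen. None of 5 T cell and none of 3 stromal markers passed the detection filter, and 0 of 3 tested granulocyte markers and 0 of 1 tested erythroid marker were called. The 3 granulocyte markers had log2 ratios below 0. The brightest of them, MPO, had 3400 ± 1525 with RANKL and 4720 ± 2588 with M-CSF alone, a wide spread among replicates. Of 4 B cell markers 1 was tested, CD79B, and it was lower, at 205 ± 21.3 with RANKL and 286 ± 7.64 with M-CSF alone (SD, n = 3 each). In these bulk samples, fewer cells of a type and less RNA per cell cannot be told apart, and the part that the change in cell markers has in the results below was not tested.

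The tested member rows moved little, and those that passed the test were higher with RANKL. Of the 30 member rows 22 were tested, and 4 of these (18.2%) were higher with RANKL, none was lower and 18 did not pass. That stands beside 57.8% called among all tested genes, 28.9% higher and 29.0% lower. The 4 were NOLA3 (Nop10) and NOLA2 (Nhp2), both core proteins of box H/ACA snoRNPs, and RRS1 and BXDC2 (Brix1), both assembly factors of the large subunit. The log2 ratio was above 0 in 18 of the 22 and below 0 in 4, with a median of 0.19, a range from -0.37 to 0.85 and a median absolute value of 0.20. No tested member reached 2-fold. Among all tested genes, 5478 had a log2 ratio above 0 and 5534 below.

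**Figure D1:**
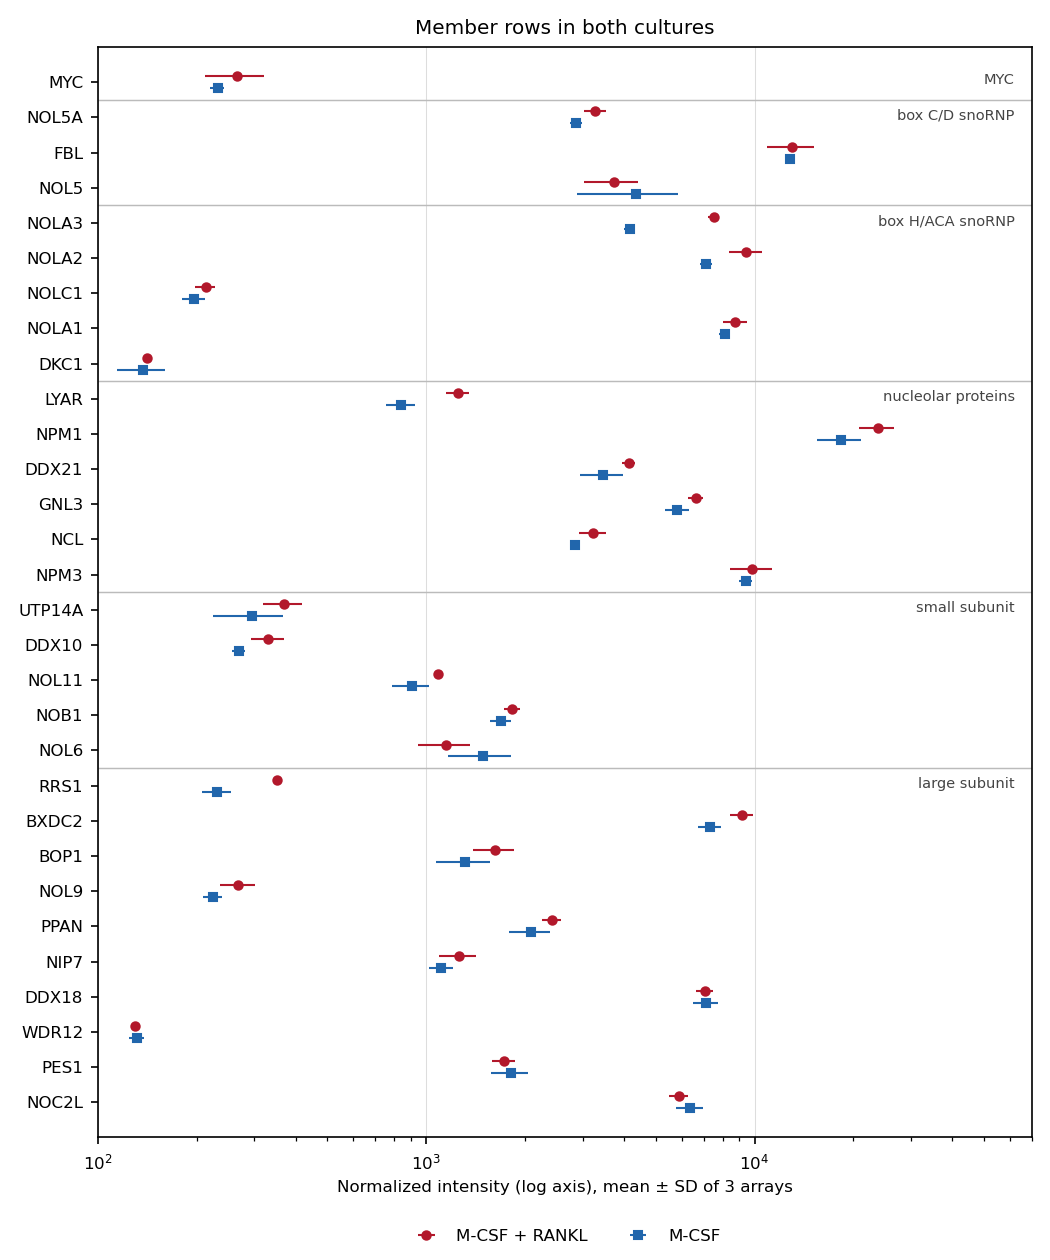
Normalized intensity (log axis) of the 30 member rows, grouped by role, as mean ± SD of 3 arrays, with M-CSF + RANKL as circles above and M-CSF alone as squares below in each row. The pairs lie close together throughout, with the widest gaps at NOLA3, RRS1 and LYAR. Intensities of different rows come from different probes and are not comparable.

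The 4 called members differ in how far apart the groups lie. NOLA3, the smallest of the H/ACA core proteins, had an intensity of 7508 ± 302 with RANKL and 4163 ± 159 with M-CSF alone. Its log2 ratio was 0.85 (SE 0.08, limma adjusted p = 3.02e-06), the largest among the tested members. RRS1, needed to build the large subunit, gave 352 ± 7.89 with RANKL and 231 ± 23.4 with M-CSF alone. It is a dim row, and its log2 ratio of 0.61 (SE 0.10, limma adjusted p = 0.000198) was 1.27 after the background was subtracted. NOLA2 had 9426 ± 1090 with RANKL and 7120 ± 276 with M-CSF alone, a log2 ratio of 0.40 (SE 0.09, limma adjusted p = 0.00302). BXDC2 had 9150 ± 712 with RANKL and 7309 ± 594 with M-CSF alone, a log2 ratio of 0.32 (SE 0.09, limma adjusted p = 0.00941). NOLA2 and BXDC2 lose the call under some other treatments of the variance: when the group variances were kept separate, their adjusted p was 0.0839 and 0.061.

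Although single arrays are not given, the mean and SD of 3 values bound where they can lie, since none can be more than 1.41 population SDs from its mean. By that bound the arrays of the 2 groups cannot overlap for 4 tested members, NOLA3, RRS1, NOLA2 and NOL11, all higher with RANKL, and for 50.8% of all tested genes. BXDC2 passed the test although its arrays may overlap. NOL11, by contrast, cannot overlap but missed the threshold.

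**Figure D2:**
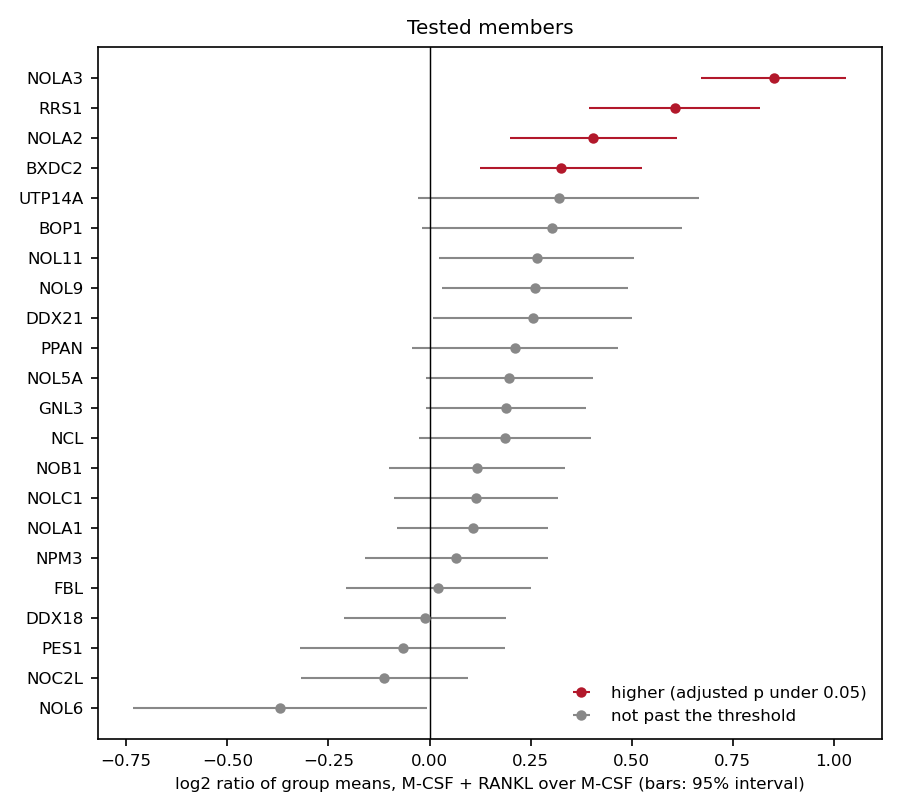
Log2 ratio of the group means, M-CSF + RANKL over M-CSF alone, for the 22 tested members, with 95% intervals as bars. The 4 members past the threshold (red) lie between 0.32 and 0.85, and the 18 others (grey) lie between -0.37 and 0.32.

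MYC itself did not pass the detection filter and was not tested. Its intensity was 266 ± 54.3 with RANKL and 231 ± 11.3 with M-CSF alone, with detection p-values of 0.416 with RANKL and 0.468 with M-CSF alone. Both means lie above the lowest detected signals, 196 with RANKL and 198 with M-CSF alone, and the detection p of MYC is one of those that do not follow the signal, so it does not show that MYC was absent. The groups may overlap, and the log2 ratio was 0.20 (SE 0.12) with a limma adjusted p of 0.339 when every row of the table was tested. The missed threshold does not show equal levels.

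The box C/D proteins showed no call. FBL (fibrillarin), the methyltransferase of these particles, had 13027 ± 2096 with RANKL and 12832 ± 377 with M-CSF alone, a log2 ratio of 0.02 with a 95% interval from -0.21 to 0.25. NOL5A (Nop56), a core protein, had 3277 ± 247 with RANKL and 2858 ± 121 with M-CSF alone, a log2 ratio of 0.20. NOL5 (Nop58), its partner in the core, was not tested and had 3721 ± 696 with RANKL and 4366 ± 1488 with M-CSF alone. The SD of NOL5 was a larger share of its mean than in FBL or NOL5A in both groups, and its groups may overlap.

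Of the 5 box H/ACA rows, 4 were tested and 2 were higher. Beside NOLA3 and NOLA2, the core protein NOLA1 (Gar1) had 8741 ± 732 with RANKL and 8120 ± 318 with M-CSF alone and did not pass, with a log2 ratio of 0.11 and a 95% interval from -0.08 to 0.29. NOLC1, a chaperone of snoRNPs, had 213 ± 14.8 with RANKL and 197 ± 15.7 with M-CSF alone. It entered the test through the RANKL group only, and its log2 ratio of 0.12 did not pass. DKC1 (dyskerin), the enzyme of the particle, read at background with 141 ± 4.27 with RANKL and 137 ± 22.9 with M-CSF alone, so the row gives no level for it.

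Among 6 abundant nucleolar proteins 4 were tested and none passed. NCL (nucleolin) had 3232 ± 302 with RANKL and 2841 ± 89.1 with M-CSF alone, and the nucleolar GTPase GNL3 (nucleostemin) had 6633 ± 343 with RANKL and 5816 ± 485 with M-CSF alone. Both had a log2 ratio of 0.19, and their groups may overlap. The RNA helicase DDX21 had 4134 ± 194 with RANKL and 3464 ± 515 with M-CSF alone, with a limma adjusted p of 0.0704. NPM3, a nucleophosmin relative, had 9834 ± 1436 with RANKL and 9394 ± 434 with M-CSF alone, a log2 ratio of 0.07. The array also holds a row for its pseudogene NPM3-PS1, with 23859 ± 4586 with RANKL and 24155 ± 2094 with M-CSF alone, and cross-hybridisation between the NPM3 and NPM3-PS1 rows was not examined.

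NPM1 and LYAR, the remaining nucleolar proteins, show what the detection filter left out. NPM1 (nucleophosmin) had 23715 ± 2844 with RANKL and 18301 ± 2756 with M-CSF alone, yet its detection p-values were 0.0644 with RANKL and 0.0127 with M-CSF alone. LYAR had 1249 ± 103 with RANKL and 839 ± 86.7 with M-CSF alone, and its arrays cannot overlap, yet its detection p-values were 0.320 with RANKL and 0.261 with M-CSF alone. For such rows the detection p does not follow the signal. When every row was tested, limma's adjusted p was 0.0164 for NPM1 and 0.00113 for LYAR, both higher with RANKL, and 21.4% of all 31492 rows were called. That setting called 7 of the 30 member rows, all higher, the helicase DDX10 being the third beyond the tested 4.

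Among the small-subunit factors 4 of 5 were tested and none passed. UTP14A, of the small-subunit processome, had 368 ± 49.0 with RANKL and 295 ± 70.7 with M-CSF alone, a log2 ratio of 0.32 with a 95% interval from -0.03 to 0.67. NOL11, a processome protein that in human cells supports transcription of ribosomal DNA, had 1085 ± 13.0 with RANKL and 903 ± 114 with M-CSF alone, with a limma adjusted p of 0.0570. NOB1, the nuclease that trims the end of small-subunit RNA, had 1831 ± 100 with RANKL and 1688 ± 121 with M-CSF alone. NOL6 had the lowest ratio of the tested members, with 1153 ± 211 with RANKL and 1488 ± 323 with M-CSF alone. Its log2 ratio of -0.37 (95% interval -0.73 to -0.01) had a limma adjusted p of 0.0767. NOL6 entered the test through the M-CSF group only, but its detection p with RANKL, 0.0535, does not follow the signal. Its RANKL mean lies above the lowest detected signal. DDX10, not tested, had 331 ± 37.7 with RANKL and 269 ± 12.6 with M-CSF alone.

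The large-subunit factors form the largest role, with 10 rows, 8 tested and 2 higher. PES1 and BOP1 work in a complex with WDR12. PES1 had 1727 ± 136 with RANKL and 1808 ± 237 with M-CSF alone, while BOP1 had 1624 ± 233 with RANKL and 1317 ± 249 with M-CSF alone. Neither passed, their log2 ratios being -0.07 and 0.30, and WDR12 read at background in both groups (130 ± 2.99 with RANKL and 131 ± 6.95 with M-CSF alone). The RNA kinase NOL9 had 268 ± 33.0 with RANKL and 224 ± 14.4 with M-CSF alone and lay just outside the threshold, with a limma adjusted p of 0.0518. PPAN had 2413 ± 161 with RANKL and 2085 ± 298 with M-CSF alone, a log2 ratio of 0.21. The helicase DDX18 had 7063 ± 433 with RANKL and 7121 ± 630 with M-CSF alone, a log2 ratio of -0.01 with a 95% interval from -0.21 to 0.19. NOC2L had 5884 ± 376 with RANKL and 6358 ± 589 with M-CSF alone, a log2 ratio of -0.11, and also did not pass. NIP7, not tested, had 1254 ± 163 with RANKL and 1112 ± 91.1 with M-CSF alone. Over the 18 tested members that missed the threshold, 14 had a log2 ratio above 0, 4 had an unadjusted p under 0.05, and the 95% intervals together reach from 0.602-fold to 1.59-fold.

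The rows under older array names hold 18 further genes of the set and another row of Brix1. Of these 19 rows 15 were tested, and 8 were higher, 1 was lower and 6 did not pass. Their median log2 ratio was 0.32. The share called, 60.0%, is near the 57.8% among all tested genes, with 53.3% higher and 6.67% lower beside 28.9% and 29.0%. They were found after the table was opened and are no independent support for the members. RPO1-3 (Polr1d), a subunit shared by RNA polymerases I and III, had 13236 ± 778 with RANKL and 6341 ± 389 with M-CSF alone, a log2 ratio of 1.06 (limma adjusted p = 4.45e-07). RPO1-1 (Polr1c), which is shared in the same way, had 2229 ± 126 with RANKL and 1695 ± 114 with M-CSF alone, a log2 ratio of 0.40 (limma adjusted p = 0.00444). RPO1-4 (Polr1a), the largest subunit of RNA polymerase I, was the lower one, with 1000 ± 72.3 with RANKL and 1187 ± 36.6 with M-CSF alone (log2 ratio -0.25, limma adjusted p = 0.0488). That call lies at the threshold and was lost under most alternatives, for example when every row was tested (adjusted p = 0.119). PAF53 (Polr1e) did not pass at 1256 ± 18.0 with RANKL and 1070 ± 106 with M-CSF alone. RPO1-2 (Polr1b) was not tested, with detection p-values of 0.107 with RANKL and 0.329 with M-CSF alone. It had 946 ± 41.3 with RANKL and 733 ± 19.8 with M-CSF alone, and its arrays cannot overlap. When every row was tested, its limma adjusted p was 0.0124, higher with RANKL.

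Several processing factors under older names were higher as well. The small-subunit factor 2610033H07RIK (Nop14) had 2360 ± 246 with RANKL and 1571 ± 320 with M-CSF alone, a log2 ratio of 0.59, and NNP1 (Rrp1) had 607 ± 63.3 with RANKL and 427 ± 29.2 with M-CSF alone, a log2 ratio of 0.51. RNU3IP2 (Rrp9), AI326906 (Noc4l) and NOL1 (Nop2) were higher by log2 ratios of 0.39, 0.36 and 0.32. 1110064N10RIK, the other Brix1 row, had 633 ± 91.5 with RANKL and 493 ± 63.2 with M-CSF alone. Its log2 ratio was 0.36 beside 0.32 in BXDC2, so both Brix1 rows were called higher. The arrays of both rows may overlap. 1110064N10RIK missed the threshold when every row was tested (limma adjusted p = 0.0561). The rows of Imp3, Imp4, Mrto4, Wdr74 and Tsr1 did not pass, with log2 ratios between 0.11 and 0.25. WRD43 (Wdr43), not tested, had 1460 ± 163 with RANKL and 921 ± 101 with M-CSF alone. Its arrays cannot overlap, and its limma adjusted p was 0.000478 when every row was tested. The rows of Utp18 and Utp20, also not tested, read at background. Members and older-name rows together gave 12 higher, 1 lower and 24 not passing of 37 tested, with a median log2 ratio of 0.24. The share higher, 32.4%, is near the 28.9% among all tested genes, and 2.70% were lower beside 29.0%.

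The promoter sequences of the called members and of NOL11 are printed here because MYC with MAX is known to bind the E-box CACGTG, and NOL11 is the only member gene with that word in the window searched. The window is the 250 bases before the annotated start, read 5′ to 3′ on the gene's strand from RefSeq sequences of GRCm38.p6, and these genes were chosen after their values were seen. The word reads the same on both strands, so 1 search covers both. Nop10 lies at chr2:112261676-112261925 (plus strand), Nhp2 at chr11:51619523-51619772 (plus strand), Brix1 at chr15:10485938-10486187 (minus strand) and Nol11 at chr11:107189382-107189631 (minus strand). Bases are in lower case and the E-box in capitals.
Nop10: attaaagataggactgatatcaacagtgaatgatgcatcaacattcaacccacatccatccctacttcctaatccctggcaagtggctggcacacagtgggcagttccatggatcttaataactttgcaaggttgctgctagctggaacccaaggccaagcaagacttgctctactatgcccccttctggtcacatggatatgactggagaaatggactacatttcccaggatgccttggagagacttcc
Nhp2: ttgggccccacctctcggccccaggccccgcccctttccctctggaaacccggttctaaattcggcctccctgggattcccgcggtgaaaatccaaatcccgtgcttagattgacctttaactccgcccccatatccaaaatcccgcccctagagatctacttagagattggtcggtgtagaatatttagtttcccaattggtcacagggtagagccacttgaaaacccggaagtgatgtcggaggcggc
Brix1: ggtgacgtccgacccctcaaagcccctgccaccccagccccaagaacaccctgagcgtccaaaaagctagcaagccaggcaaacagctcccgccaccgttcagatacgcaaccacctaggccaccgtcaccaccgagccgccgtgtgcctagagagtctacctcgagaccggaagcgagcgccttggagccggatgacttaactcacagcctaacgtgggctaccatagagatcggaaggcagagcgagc
Nol11: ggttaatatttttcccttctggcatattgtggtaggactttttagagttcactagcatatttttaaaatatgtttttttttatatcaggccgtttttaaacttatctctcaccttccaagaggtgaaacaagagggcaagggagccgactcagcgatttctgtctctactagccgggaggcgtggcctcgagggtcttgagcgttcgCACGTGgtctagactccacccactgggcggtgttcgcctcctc
In Nol11 the E-box begins 43 bases before the start. The Nop10 window holds 0 CpG dinucleotides, against 13 in Nhp2, 18 in Brix1 and 11 in Nol11. Of the 30 member genes 24 had a promoter in the table, and 1 of these (4.17%) held an E-box, against 6.86% of all 27025 genes. The 18 further genes under older names held it in 3 (16.7%). The median GC content was 59.0% in members and 52.4% in all promoters. RRS1 and MYC were not among the matched genes.

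The pathway around the members was described with 6 further lists, which do not overlap the members. Together they hold 194 tested rows, of which 58 were higher, 14 lower and 122 not past the threshold. Their median log2 ratio was 0.10. The share higher, 29.9%, is near the 28.9% among all tested genes, and the share lower was 7.22% beside 29.0%. The counts below describe each list beside those background shares, and no list was tested as a set.

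Among 64 other tested ribosome assembly factors 24 were higher and 4 were lower, with 36 not passing and a median log2 ratio of 0.17. Among the lower rows, 2810453H10RIK (Mphosph10) entered the test through the M-CSF group only, so the filter favoured its direction. It had 164 ± 17.4 with RANKL and 206 ± 13.3 with M-CSF alone. With the undetected RANKL group set to the lowest detected signal, it was at least 1.05-fold lower with RANKL. The shares that follow count this row. In all, 43.8% were called, beside 57.8% of all tested genes. The share higher was 37.5% and the share lower 6.25%, beside 28.9% and 29.0%. The largest rises were in 1810030A06RIK (Las1l), a nuclease of large-subunit RNA processing, with 1167 ± 58.5 with RANKL and 480 ± 12.8 with M-CSF alone, and in 2700082D03RIK (Utp11), of the small-subunit processome, with 23447 ± 231 with RANKL and 9790 ± 510 with M-CSF alone. Their log2 ratios were 1.28 and 1.26, both beyond 2-fold, followed by 0.71 for AA408556 (Rrp12), an export factor of pre-ribosomes. The deepest falls were in TCOF1 (treacle), which supports transcription of ribosomal DNA, with 726 ± 74.1 with RANKL and 1053 ± 101 with M-CSF alone, and in 2610027L16RIK (Nop9) and SENP3, at log2 ratios of -0.54, -0.53 and -0.41.

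Of 11 tested factors of RNA polymerase I and shared subunits, 2 were higher, none was lower and 9 did not pass, the median log2 ratio being 0.10. The share called was 18.2%, all higher, beside 57.8% of all tested genes, 28.9% higher and 29.0% lower. Both that rose are subunits shared by the nuclear RNA polymerases: 1810060D16RIK (Polr2f), with 9369 ± 858 with RANKL and 5015 ± 770 with M-CSF alone, and POLR2K, with 842 ± 57.8 with RANKL and 608 ± 17.8 with M-CSF alone. In the RNA exosome, which trims and degrades pre-ribosomal RNA, 1 of 11 tested genes was higher, 3 were lower and 7 did not pass. The share lower was 27.3%, near the 29.0% among all tested genes, and the share higher was 9.09%, beside 28.9%. The count of 3 lower was 1 without moderation or with separate variances and 0 with SDs doubled. EXOSC7 rose by a log2 ratio of 0.42, while EXOSC6, the helicase row 2610528A15RIK (Mtrex) and EXOSC1 had log2 ratios of -0.37, -0.33 and -0.24. EXOSC1 missed the threshold when every row was tested (limma adjusted p = 0.0872). The exosome was the list with a median below 0, at -0.12.

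Cytosolic ribosomal proteins, the finished product's own parts, were higher in 19 of 71 tested rows and lower in none, with 52 not passing and a median log2 ratio of 0.10. The share higher, 26.8%, is near the 28.9% among all tested genes, while none was lower beside 29.0%. The largest rises were in ARBP (Rplp0), with 1887 ± 186 with RANKL and 932 ± 142 with M-CSF alone, RPL13A, with 9894 ± 257 with RANKL and 4964 ± 563 with M-CSF alone, and FAU, with 37011 ± 3700 with RANKL and 26072 ± 1006 with M-CSF alone. Their log2 ratios were 1.02, 1.00 and 0.51. The brightest row of this list averaged 69816 with RANKL and 70030 with M-CSF alone, close to the highest mean of the whole table in each group, and whether such rows are compressed was not tested.

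**Figure D3:**
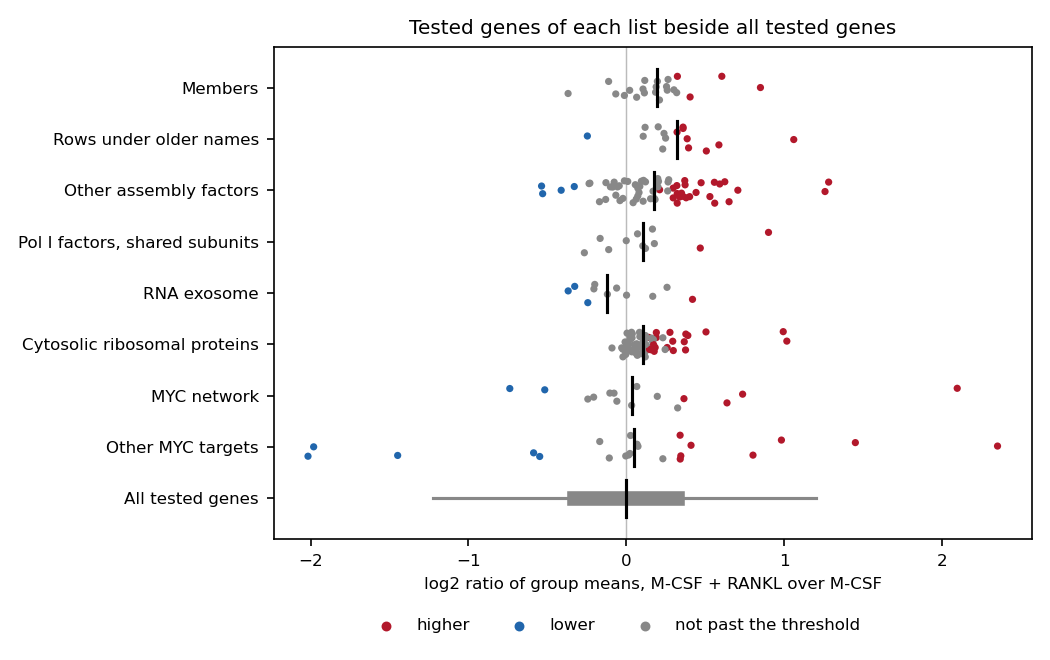
Log2 ratio of the group means, M-CSF + RANKL over M-CSF alone, for the tested rows of each list (points, red higher, blue lower, grey not past the threshold), with list medians as black bars. The bottom row gives all tested genes as the 5th to 95th percentile (line, -1.22 to 1.21) and the 25th to 75th (box, -0.33 to 0.32), beside which the 22 members lie between -0.37 and 0.85.

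In the MYC network, the partners and antagonists of MYC, 4 of 15 tested genes were higher, 2 were lower and 9 did not pass. The share higher, 26.7%, is near the 28.9% among all tested genes, and 13.3% were lower beside 29.0%. LMYC1 (Mycl), a paralog of MYC that also pairs with MAX, had 871 ± 94.7 with RANKL and 204 ± 25.7 with M-CSF alone. Its log2 ratio of 2.10 (limma adjusted p = 2.96e-08) was larger than that of any tested member, and its arrays cannot overlap. The M-CSF mean lies close to the lowest detected signal, and the log2 ratio was 3.63 after the background was subtracted. NMYC1 (Mycn) read at background with 116 ± 11.9 with RANKL and 143 ± 12.8 with M-CSF alone. MAX had 2369 ± 100 with RANKL and 2733 ± 82.7 with M-CSF alone and did not pass, with a limma adjusted p of 0.0669.

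Other partners changed beside LMYC1. MYCBP, a MYC-binding protein, had 1088 ± 13.4 with RANKL and 653 ± 38.3 with M-CSF alone, a log2 ratio of 0.74. AW228700 (Mlxip) and TCFL4 (Mlx), which pair with each other and sense glucose products, had log2 ratios of 0.64 and 0.37. MNT and MXD3, which compete with MYC for MAX and repress its targets, were lower. MNT had 260 ± 18.9 with RANKL and 373 ± 59.6 with M-CSF alone, a log2 ratio of -0.52. MXD3 was not detected with RANKL, at 140 ± 5.41, against 233 ± 64.5 with M-CSF alone, and was at least 1.19-fold lower with RANKL when the undetected group was set to the lowest detected signal. At that floor its limma adjusted p was 0.206, and MNT missed the threshold without moderation, at 0.0501.

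**Figure D4:**
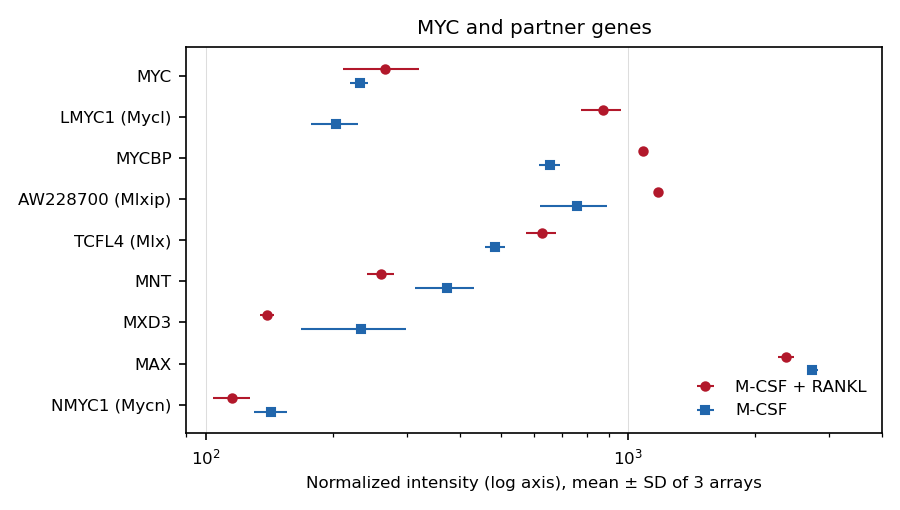
Normalized intensity (log axis) of MYC, of the called genes of the MYC network, and of MAX and NMYC1, as mean ± SD of 3 arrays, with M-CSF + RANKL as circles above and M-CSF alone as squares below. LMYC1 stands at 871 with RANKL and 204 with M-CSF alone, while MYC stands at 266 with RANKL and 231 with M-CSF alone.

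Known MYC targets outside the nucleolus moved in both directions. Of 22 tested, 8 were higher and 5 were lower, with 9 not passing and a median log2 ratio of 0.05. The list includes CDKN1A, which MYC is known to repress, so its counts by direction do not measure MYC activity. The share called, 59.1%, is near the 57.8% among all tested genes, with 36.4% higher and 22.7% lower beside 28.9% and 29.0%. TFRC, the transferrin receptor that takes up iron, had 31519 ± 3150 with RANKL and 6168 ± 610 with M-CSF alone, a log2 ratio of 2.35. HSPE1 and HSPD1, the mitochondrial chaperonin pair, had log2 ratios of 1.45 and 0.98. The 3 largest falls were in cell cycle genes. E2F2, a transcription factor of S phase entry, had 475 ± 53.0 with RANKL and 1921 ± 97.0 with M-CSF alone, a log2 ratio of -2.02. It entered the test through the M-CSF group only (detection p 0.0365 with RANKL), although both means lie above the lowest detected signals. CDKN1A (p21), a cyclin-dependent kinase inhibitor that MYC is known to repress, had 891 ± 112 with RANKL and 3519 ± 76.2 with M-CSF alone, a log2 ratio of -1.98. CCND2 (cyclin D2) had 197 ± 9.95 with RANKL and 537 ± 200 with M-CSF alone, a log2 ratio of -1.45, or -2.92 after the background was subtracted.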

How the data were processed

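Per the labels, each of the 2 groups is the authors' mean of 3 biological replicates run on separate arrays. The authors deposited a normalized intensity per array gene with its SD and a detection p-value. How they normalized the arrays, with which software and on which array version, is not stated in the labels or file headers. Detection p-values move in steps of 1/936 for most genes, and off those steps they do not follow the signal. Of the 8 member rows not tested, only 2 had a stepped detection p with RANKL. Some called rows of the lists, MYCBP, ARBP and RPO1-4 among them, passed the filter on detection p-values off the steps. The means of these 3 rows lie above the lowest detected signals in both groups.

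The effect is the log2 ratio of means. Its variance came from the SDs by the delta method, was pooled on 4 degrees of freedom and moderated with limma 3.58.1 in R 4.3.3 (squeezeVar, intensity trend, prior degrees of freedom 7.49). Two-sided p-values were adjusted by the Benjamini-Hochberg method across 11012 genes. Floors were set at the lowest signal with a stepped, passing detection p, 196 with RANKL and 198 with M-CSF alone. The procedure was also run on simulated data, in which a far smaller share of genes changed than was called here. That run does not give the error rate in these data. Array names were matched to RefSeq symbols, 24 member rows by current symbol and 6 by synonym.

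The members and lists were chosen with earlier results of these data known, and the rows under older names after the files were read. Named genes are every member, and per list the 3 largest rises and 3 largest falls past the threshold. TCFL4, MAX, NMYC1, PAF53 and other genes outside that rule were named after their values were seen.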

Additional observations from a re-analysis of the deposited data

How the results depend on the processing

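No paired analysis was possible because the files hold group means, and for the same reason no replicate could be left out. In place of 4 members higher with RANKL, 7 were called with no filter on detection and 7 with a filter on signal, but 2 with separate group variances and 2 with both SDs doubled. NOLA3 and RRS1 were called under every alternative, with limma adjusted p up to 0.00248 and 0.0424. NOLA2 ranged up to 0.141 and BXDC2 up to 0.225, and BXDC2 also missed the threshold without moderation, at 0.0526. NOL11 passed without the intensity trend, at 0.046, and NOL9 when ratios were centred, at 0.0499. No member was called lower under any alternative, and the median log2 ratio of the members stayed between 0.19 and 0.22. Over the pathway lists and older-name rows together, 66 were higher, against 36 with separate variances and 18 with SDs doubled, and 15 were lower, against 4 with SDs doubled. Polr1a (RPO1-4) lost its call with no filter, at 0.119. The cause of these shifts was not tested, except that doubling the SDs widens every error by construction. No direction reversed. Setting undetected groups to the floor, and testing only genes with stepped detection p-values, were chosen after seeing the data and left the members' count at 4. Over the pathway lists and older-name rows, the floor left 66 higher but 12 lower in place of 15. With stepped detection p-values only, 57 were higher and 10 lower of 180 tested, in place of 66 and 15 of 209. The number of arrays limits the precision.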
